A study of Arabidopsis thaliana with 6 samples.

Results

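The 9 genes described here code for the known enzymes of sporopollenin synthesis and for the transporter thought to carry their product out of the tapetum: ACOS5 (AT1G62940), CYP703A2 (AT1G01280), CYP704B1 (AT1G69500), MS2 (AT3G11980), PKSA (AT1G02050), PKSB (AT4G34850), TKPR1 (AT4G35420), TKPR2 (AT1G68540) and ABCG26 (AT3G13220). They were chosen by their locus identifiers for this function, out of 27629 entries counted, and all 9 were among the 18642 genes that had enough counts to be tested. RNA of young flower buds of Arabidopsis thaliana, ecotype Col (Col-0 in the study's methods), with anthers of stages 6 to 9, was sequenced from 3 BnA9::BnaC.MAGL8.a libraries (BnA9::BnMAGL8.1 in the labels) and from 3 wild type libraries. The transgenic plants carry a monoacylglycerol lipase gene of oilseed rape under the tapetum promoter BnA9, and the wild type carries no transgene. Both genotypes grew in a greenhouse kept at 23 °C, with a day of 16 h and a night of 8 h. The replicates are biological, but how many plants, and how many independent transgenic lines, each one holds is not given in the sources used here, so the p-values measure only the spread between these 6 libraries.

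Sporopollenin is the resistant polymer of the exine, the outer wall of the pollen grain. Its aliphatic part is made in the tapetum, the cell layer that surrounds the microspores: fatty acids are activated, hydroxylated, extended by polyketide synthases and reduced, and the products are exported to the locule. In Arabidopsis the pathway stands under a cascade of tapetal transcription factors, DYT1, TDF1, AMS, MS188 and MS1, and plants that lack one of the enzymes make pollen with a defective exine. The comparison of the genotypes addresses whether expression of the lipase in the tapetum was accompanied by a change in this pathway.

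Because the regulators bind promoters of such genes, the 250 bases before the annotated start of each gene were read from RefSeq TAIR10.1 and searched on both strands for CANNTG, the E-box bound by bHLH factors such as AMS, and for CCAACC, an element bound by MYB factors. The promoters of 4 genes are shown with the E-boxes in capitals: ACOS5 (chr1:23310282-23310531, + strand) and MS2 (chr3:3813981-3814230, + strand), whose levels followed each other most closely, CYP704B1 (chr1:26123690-26123939, + strand), which had the largest difference between the genotypes, and ABCG26 (chr3:4250704-4250953, − strand), the transporter.
ACOS5: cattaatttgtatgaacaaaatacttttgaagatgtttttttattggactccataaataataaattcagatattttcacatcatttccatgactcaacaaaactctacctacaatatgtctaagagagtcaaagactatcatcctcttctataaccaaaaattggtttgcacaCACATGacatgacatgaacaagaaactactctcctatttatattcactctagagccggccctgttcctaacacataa
MS2: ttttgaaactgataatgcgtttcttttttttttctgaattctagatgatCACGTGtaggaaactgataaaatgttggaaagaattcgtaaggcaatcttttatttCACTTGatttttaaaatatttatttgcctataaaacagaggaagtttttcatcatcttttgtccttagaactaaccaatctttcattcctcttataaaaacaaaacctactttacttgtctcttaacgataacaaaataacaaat
CYP704B1: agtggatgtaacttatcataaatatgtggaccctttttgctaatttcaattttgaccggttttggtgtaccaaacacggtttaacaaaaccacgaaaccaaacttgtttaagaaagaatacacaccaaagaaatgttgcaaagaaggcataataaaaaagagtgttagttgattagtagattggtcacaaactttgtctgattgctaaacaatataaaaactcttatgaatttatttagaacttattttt
ABCG26: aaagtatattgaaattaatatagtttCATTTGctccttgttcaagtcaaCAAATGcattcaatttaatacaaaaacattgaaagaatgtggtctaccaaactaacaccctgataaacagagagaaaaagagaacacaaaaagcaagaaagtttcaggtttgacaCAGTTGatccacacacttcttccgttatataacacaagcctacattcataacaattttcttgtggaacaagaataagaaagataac
An E-box stood in the window of 6 of the 9 genes, and in 55.3% of the 27443 windows of all genes. MS2 had 2, at 201 and 145 bases before the start, the first of which reads CACGTG, and ABCG26 had 3. TKPR2 had 2 and TKPR1 had 1, all of them CACATG, the letters also found in ACOS5. No E-box was present in the windows of CYP703A2, CYP704B1 and PKSB. CCAACC was in 0 of the 9 windows and in 6.32% of all windows, which says only that these letters are not in these 250 bases. The windows of PKSA, with 3 E-boxes, and PKSB overlap neighbouring genes and are not shown.

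Library totals lay between 13519945 and 14729927 counts. The transgene had 445, 62.1 and 686 CPM (counts scaled to a common library size) in transgenic replicates 1, 2 and 3, and 0 counts in each wild type library, where 3 counts would be 0.193 to 0.225 CPM. Wild type replicate 3 stood apart from the other libraries: LHY, a clock gene expressed around dawn, had 2.48, 6.48 and 0.143 CPM in the transgenic libraries and 1.03, 0.15 and 32.4 CPM in wild type replicates 1, 2 and 3. ELF4, an evening gene of the clock, had 18.1, 27.5 and 48.2 CPM in the transgenic libraries and 36.5, 57.7 and 0.628 CPM in the wild type. The hour of sampling is not given in the sources used here, and the part of these differences in the results below was not tested. Across all genes edgeR's quasi-likelihood test called 3, or 0.0161%, at an adjusted p under 0.05.

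All 9 sporopollenin genes had a lower mean in the BnA9::BnaC.MAGL8.a buds than in the wild type. The means were 34.1% (CYP704B1) to 73.3% (CYP703A2) of the wild type mean. None of the differences passed the test once p was adjusted over all genes tested. The median log2 fold change of the 9 genes was −0.72, against −0.015 for all genes tested. Of the 9 genes, 0 were called, beside the 0.0161% of all genes given above. CYP704B1 alone was lower at an unadjusted p under 0.05, as were 4.26% of all genes. For 0 of the 9 genes did all 3 transgenic libraries lie below all 3 wild type libraries, an arrangement found in 6.62% of all genes. In bulk buds, fewer tapetal cells and less RNA of these genes per cell cannot be told apart.

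**Figure D1:**
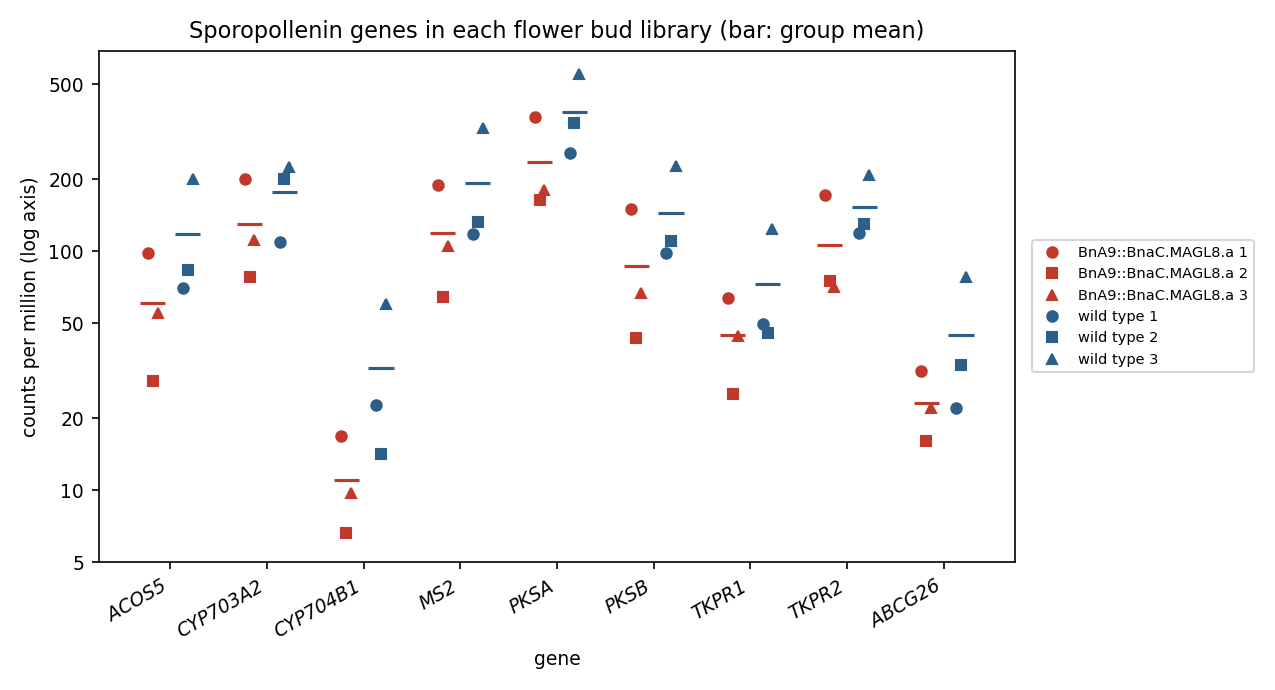
CPM on a log axis for each of the 9 sporopollenin genes, with transgenic libraries in red on the left of each gene, wild type libraries in blue on its right, symbols for replicate numbers and bars for group means. Wild type replicate 3 is the highest wild type library for 9 of 9 genes, transgenic replicate 1 lies above at least 1 wild type library for 9 of 9 genes, and the means of the transgenic libraries are lower throughout.

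ACOS5 codes for the acyl-CoA synthetase that activates fatty acids as the first step of the pathway. Its level was 97.8, 28.5 and 55.1 CPM in transgenic replicates 1, 2 and 3, against 70.2, 83.5 and 199.7 CPM in wild type replicates 1, 2 and 3. Transgenic replicate 1 lay above 2 of the wild type libraries, so the groups overlapped, and the log2 fold change was −0.96 ± 0.49 (SE, n = 3 each, edgeR adjusted p = 0.743).

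The activated or free fatty acids are hydroxylated by a pair of cytochromes P450. CYP703A2, which hydroxylates medium-chain fatty acids within the chain, had 201, 77.8 and 112 CPM in the transgenic libraries, against 109, 199.8 and 224 CPM in the wild type. Transgenic replicate 1 was higher than wild type replicates 1 and 2, and transgenic replicate 3 was close to wild type replicate 1. CYP703A2 had the smallest difference of the 9 genes, with a log2 fold change of −0.45 ± 0.36 (SE, edgeR adjusted p = 0.816). CYP704B1, the omega-hydroxylase of long-chain fatty acids, had 16.8, 6.63 and 9.73 CPM in the transgenic libraries, against 22.8, 14.2 and 59.9 CPM in the wild type. Only transgenic replicate 1 reached into the range of the wild type, above wild type replicate 2. CYP704B1 averaged 11.1 ± 5.23 CPM in transgenic and 32.3 ± 24.3 CPM in wild type buds (SD, n = 3 each), and its log2 fold change was −1.55 ± 0.53 (SE, edgeR unadjusted p = 0.0171, adjusted p = 0.72). The difference depended on wild type replicate 3, without which the log2 fold change was −0.75.

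MS2 is the fatty acyl reductase that makes fatty alcohols for the exine. MS2 had 189, 64.4 and 105 CPM in the transgenic libraries, against 118, 133 and 328 CPM in the wild type. Transgenic replicate 1 was higher than wild type replicates 1 and 2, and wild type replicate 3 was the highest of all 6. The log2 fold change of −0.69 ± 0.46 (SE, edgeR adjusted p = 0.775) was −0.07 without wild type replicate 3.

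PKSA and PKSB, also known as LAP6 and LAP5, are the polyketide synthases that extend the hydroxylated acyl-CoAs to alkyl pyrones. PKSA had 364, 163 and 179.8 CPM in the transgenic libraries, against 256, 342 and 552 CPM in the wild type. PKSB had 150.3, 43.5 and 67.0 CPM in the transgenic libraries, against 98.3, 110.2 and 226 CPM in the wild type. For both genes transgenic replicates 2 and 3 were below all wild type libraries, while transgenic replicate 1 was above the lower 2. The log2 fold changes were −0.70 ± 0.36 for PKSA and −0.74 ± 0.46 for PKSB (SE, edgeR adjusted p = 0.743 and 0.769). The 2 paralogs shared no stretch of 50 bases, so reads of such length can be told apart. PKSB overlaps the exons of AT4G34840 by 89 bases and of AT4G34860 by 84 bases, and the use of strand in counting is not given in the sources used here, so its counts are less certain there. These neighbours had 4.01 to 5.93 and 33.2 to 39.1 CPM in the transgenic libraries, against 5.17 to 6.19 and 36.4 to 50.3 CPM in the wild type.

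TKPR1 (DRL1) and TKPR2 reduce the pyrones to hydroxylated products that are building blocks of the polymer. TKPR1 had 63.6, 25.35 and 44.3 CPM in the transgenic libraries, against 49.4, 45.5 and 124 CPM in the wild type. TKPR2 had 172, 75.0 and 71.0 CPM in the transgenic libraries, against 119, 129.5 and 208 CPM in the wild type, and was the only one of the 9 genes whose lowest transgenic library was replicate 3. In both genes transgenic replicate 1 lay above wild type replicates 1 and 2. The log2 fold changes were −0.72 ± 0.43 for TKPR1 and −0.52 ± 0.355 for TKPR2 (SE, edgeR adjusted p = 0.76 and 0.779). TKPR1 overlaps AT4G35410 by 70 bases, and TKPR1 and TKPR2 shared no stretch of 50 bases.

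ABCG26, the ABC transporter of the tapetal plasma membrane held to export the pathway's polyketides, had 31.5, 16.0 and 22.0 CPM in the transgenic libraries, against 22.0, 33.5 and 77.7 CPM in the wild type. Transgenic replicate 1 exceeded wild type replicate 1, and transgenic replicate 3 lay just under it. The log2 fold change was −0.94 ± 0.44 (SE, edgeR unadjusted p = 0.0607, adjusted p = 0.722). ABCG26 overlaps 172 bases of AT3G13210, which had 0.160 to 0.728 CPM in the transgenic libraries and 0.140 to 1.55 CPM in the wild type.

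The estimates moved with single libraries in a common way. Without transgenic replicate 1 the log2 fold changes lay between −1.99 (CYP704B1) and −0.91 (CYP703A2), 8 of the 9 genes were lower at an unadjusted p under 0.05 (3.32% of all genes) and 7 of 9 had both remaining transgenic libraries below all wild type libraries (10.6% of all genes). Without wild type replicate 3 they lay between −0.75 and −0.07, and 0 genes were lower at that p. No gene changed direction when any 1 library was left out, and in none of these fits did a gene pass an adjusted p of 0.05.

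**Figure D2:**
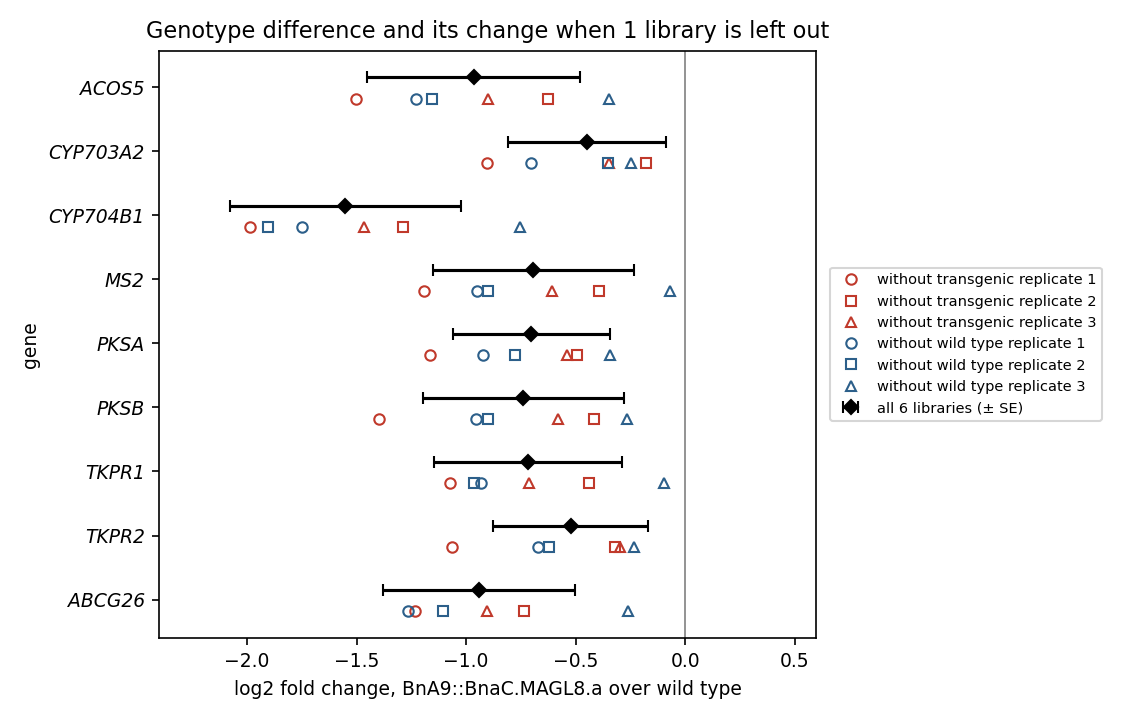
Log2 fold change of BnA9::BnaC.MAGL8.a over wild type for each gene from all 6 libraries (black, bars are standard errors) and with 1 library left out (open symbols, red for a transgenic and blue for a wild type library). The estimates without wild type replicate 3 lie nearest 0 for 8 of 9 genes (all but CYP703A2), and those without transgenic replicate 1 are the lowest for 8 of 9 (all but ABCG26).

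The order of the libraries within each genotype was largely shared by the 9 genes. The exceptions were TKPR2, whose transgenic replicates 2 and 3 stood in the other order, and CYP704B1 and TKPR1, which were higher in wild type replicate 1 than 2 where the other 7 were lower. Summed over the 9 genes, the level was 1286, 500.2 and 666 CPM in transgenic replicates 1, 2 and 3, against 865, 1091 and 1999 CPM in wild type replicates 1, 2 and 3. The highest transgenic sum was thus above 2 of the 3 wild type sums. Averaged over the genes on the log2 scale, the highest and lowest libraries differed by 1.38 (2.61-fold) among the transgenic libraries. Among the wild type libraries they differed by 1.295 (2.45-fold). The genotypes differed by −0.79 on the same log2 scale. Their means were −0.395 ± 0.699 in transgenic and 0.395 ± 0.697 in wild type buds relative to each gene's mean (SD, n = 3 each). Wild type replicate 3 was the highest wild type library for 9 of 9 genes, transgenic replicate 1 the highest transgenic library for 9 of 9, and transgenic replicate 2 the lowest for 8 of 9. The pattern of wild type replicate 3 highest and transgenic replicate 2 lowest, picked after the values were seen, held in 9.27% of all genes. Transgenic replicate 2 also had the lowest level of the transgene, whereas replicate 3 had the highest level of the transgene and replicate 1 the highest level of all 9 genes.

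The difference between the genotypes held 18.7% (CYP703A2) to 47.6% (CYP704B1) of the variance of the log2 values, against a median of 14.8% over all genes. The spread within the genotypes was large as well. Its SD was 0.484 to 0.907 among transgenic and 0.432 to 1.05 among wild type libraries for the 9 genes, against medians of 0.243 and 0.266 for all genes. The lowest SD belonged to ABCG26 in transgenic and TKPR2 in wild type buds.

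Over the 6 libraries, which the genes share, the Pearson correlation of the log2 CPM of 2 genes lay between 0.686 and 0.987 for the 36 pairs, with a median of 0.92, and Spearman's rho between 0.657 and 1. The closest pair was ACOS5 and MS2, and the farthest was CYP703A2 and CYP704B1. After each genotype's mean was taken off, the coefficients were 0.595 to 0.995 with a median of 0.903, so the relation was present within the genotypes. Without the 2 libraries farthest from the median, wild type replicate 3 and transgenic replicate 2, the median was 0.794 and the coefficients ran from 0.029 to 0.992, so part of it rests on these libraries. Among 13603 genes with a mean of at least 5 CPM, ranked by their correlation with the mean of the other 8, ACOS5 was at place 1, MS2 and PKSB at place 2, PKSA at place 7 and TKPR1 at place 13. ABCG26 followed at place 35, TKPR2 at 66, CYP704B1 at 94 and CYP703A2 at 179. A correlation above 0.9 with the mean profile of all 9 was found in 0.845% of the 13611 genes of at least that level. These 13611 include the 9 genes themselves, which made the profile.

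The 10 other genes most like the mean profile had a correlation of 0.969 to 0.989 over the 6 libraries. They were AT3G26820, annotated as an esterase or lipase family protein, AT5G42940 (a RING/U-box protein), AT5G20220 (a zinc knuckle protein), MUS81 (a nuclease), AT1G78230 (a dynein light chain type protein), UBC32 (a ubiquitin-conjugating enzyme), RPT1A (a proteasome subunit), AT5G06580 (an FAD-linked oxidase), AT1G71810 (a protein kinase) and AT1G09910 (a rhamnogalacturonate lyase). Their highest and lowest libraries differed from 1.18-fold (UBC32) to 3.58-fold (MUS81), so that some of them moved far less than the sporopollenin genes. Of the 5 tapetum markers, A6, a glucanase-like gene, had a correlation of 0.939 with the profile, ATA7 0.844, A9 0.838, ATA20 0.44 and ATA27 0.341, so the markers of this tissue did not all follow it. QRT1, a pectin methylesterase of tetrad separation, had 0.923 and QRT3 0.851.

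**Figure D3:**
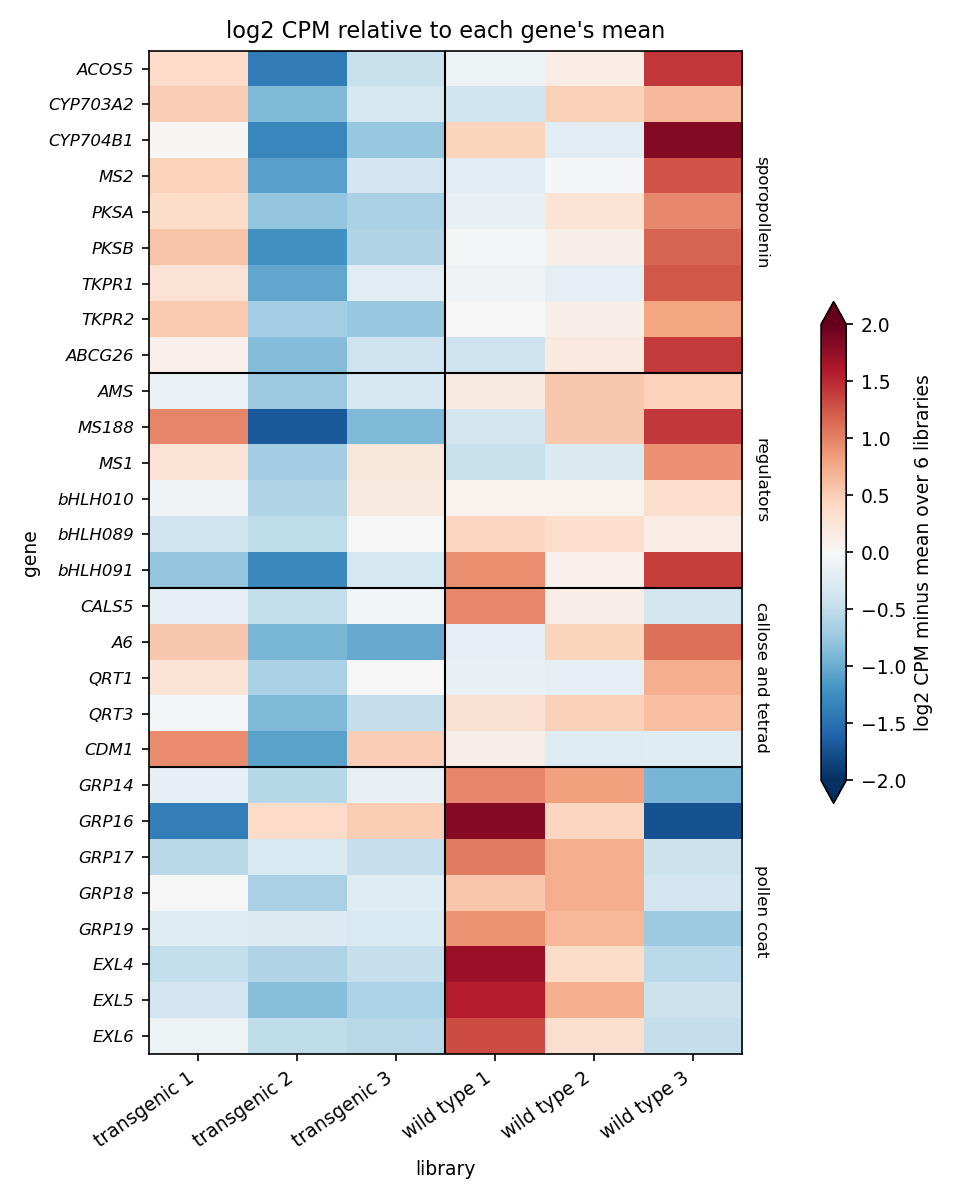
Log2 CPM minus the gene's mean over the 6 libraries, as colour from −2 (blue) to 2 (red), for the sporopollenin genes, 6 tapetal regulators, 5 callose and tetrad genes and 8 pollen coat genes, with transgenic libraries on the left and wild type libraries on the right. The sporopollenin rows are red in wild type replicate 3 and blue in transgenic replicate 2, while the pollen coat rows are red in wild type replicates 1 and 2 and blue in wild type replicate 3.

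Set against the other 8 genes in the same library, each gene kept to a narrower range than its level did. MS2 had the smallest spread of the log2 ratio to the other 8, with an SD of 0.132 over the 6 libraries, against 0.797 for its level. CYP704B1 was the exception in size: its log2 ratio was −2.91, −2.85 and −2.82 in the transgenic libraries, against −1.91, −2.90 and −1.80 in the wild type. Its transgenic values lay close together, whereas wild type replicate 2 was at their level and wild type replicates 1 and 3 were above. The ratio averaged −2.86 ± 0.05 in transgenic and −2.20 ± 0.60 in wild type buds (SD, n = 3 each), a difference of −0.66. That difference was −0.51, −1.0 and −0.46 without wild type replicates 1, 2 and 3 in turn. CYP703A2 had a log2 ratio of 1.10, 1.12 and 1.12 in the transgenic libraries, against 0.62, 1.38 and 0.34 in the wild type, so its share was also more even in the transgenic buds. For no gene were the ratios of the genotypes free of overlap, and the differences for the remaining 7 lay between −0.21 (ACOS5) and 0.21 (TKPR2).

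**Figure D4:**
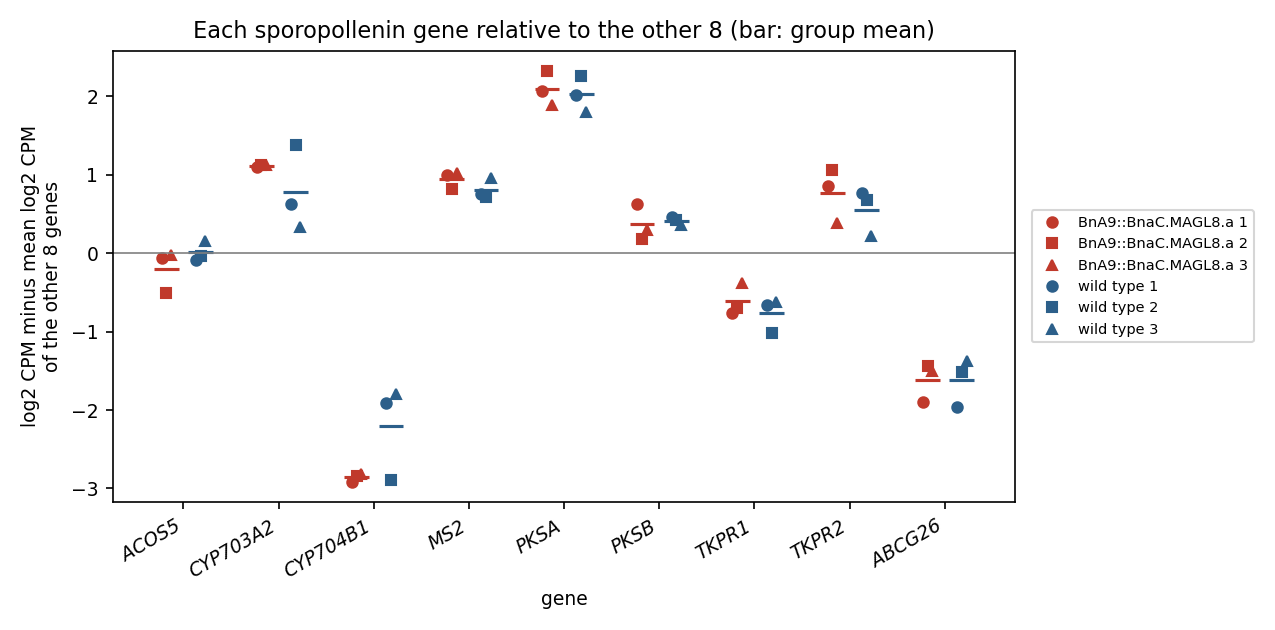
Log2 CPM of each gene minus the mean log2 CPM of the other 8 in the same library, with transgenic libraries in red on the left, wild type libraries in blue on the right and bars for group means. The values of CYP704B1 lie near −2.9 in 3 transgenic libraries and in wild type replicate 2, and near −1.9 in wild type replicates 1 and 3.

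Per exon length, with CPM divided by the kilobases of exon (RPKM), the order of the genes was almost the same in both genotypes. PKSA was highest, with 153 ± 72.4 RPKM in transgenic and 249 ± 98.8 RPKM in wild type buds (SD, n = 3 each). CYP703A2, at 81.3 ± 39.7 RPKM in transgenic and 111 ± 37.9 RPKM in wild type buds, TKPR2, PKSB and MS2 followed, without an order between neighbours that held in every library. ACOS5 and TKPR1, which exchanged places between the genotypes, came next at 35.6 ± 20.6 and 38.7 ± 16.7 RPKM in transgenic and 69.3 ± 41.9 and 63.6 ± 38.5 RPKM in wild type buds. ABCG26 averaged 9.85 ± 3.32 RPKM in transgenic and 18.9 ± 12.5 RPKM in wild type buds, and CYP704B1, with the lowest means, 6.35 ± 3.00 RPKM in transgenic and 18.5 ± 13.9 RPKM in wild type buds. ABCG26 lay above CYP704B1 in 3 of 3 transgenic libraries but in only 1 of 3 wild type libraries. PKSA lay above CYP703A2, MS2 above ACOS5 and TKPR1 above ABCG26 in all 6 libraries. Of 13 relatives of these genes from the same families, 5 had enough counts to be tested, with log2 fold changes of −0.29 (CHS) to 0.18 (ABCG25) and 0 below an unadjusted p of 0.05.

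Of the 8 tapetal regulators listed, 6 could be tested and all 6 had lower means in transgenic buds, 0 were called and 3 had an unadjusted p under 0.05, beside the 4.26% of all genes that were lower at that p. AMS, the bHLH factor that acts upstream of the exine genes, had 58.3, 38.5 and 51.1 CPM in the transgenic libraries, against 72.1, 92.6 and 88.0 CPM in the wild type, with a log2 fold change of −0.77 ± 0.18 (SE, edgeR unadjusted p = 0.00213). Its transgenic libraries were all below its wild type libraries, as in 6.62% of all genes. The same was true of bHLH091, at 1.52, 1.02 and 2.08 CPM in the transgenic libraries against 5.28, 2.85 and 7.26 CPM in the wild type, and of bHLH089, at 12.7, 11.8 and 16.7 CPM in the transgenic libraries against 22.6, 21.4 and 18.6 CPM in the wild type. MS188, the MYB factor that acts directly on sporopollenin genes, had 3.53, 0.437 and 0.859 CPM in the transgenic libraries, against 1.29, 2.55 and 4.82 CPM in the wild type. It was highest in transgenic replicate 1 and wild type replicate 3 within their groups, as the 9 genes were. MS1, a later regulator, had 9.13, 4.52 and 8.73 CPM in the transgenic libraries, against 5.41, 6.08 and 14.2 CPM in the wild type. bHLH010 had 12.9, 8.89 and 15.3 CPM in the transgenic libraries, against 14.3, 14.3 and 17.2 CPM in the wild type, and both had groups that overlapped. DYT1 had 0 counts in every library and TDF1 at most 4.

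Other genes of the pollen wall and tapetum also had mostly lower means in transgenic buds. Of 11 partners in lipid supply and transport, 8 were lower and 3 higher, with a median log2 fold change of −0.21. Of all genes, 4.26% were lower at an unadjusted p under 0.05, and of the partners 1 was. This was ABCG31, a relative of ABCG26 that acts on the pollen coat, at 6.33, 5.83 and 7.58 CPM in the transgenic libraries, against 15.6, 10.5 and 7.26 CPM in the wild type (edgeR unadjusted p = 0.033). All 4 genes listed for phenolic compounds of the pollen wall were lower, 2 of them at an unadjusted p under 0.05, beside the same 4.26% of all genes. CYP98A8, a cytochrome P450, had 420, 243 and 376 CPM in the transgenic libraries, against 628, 733 and 391 CPM in the wild type. Its groups overlapped (edgeR unadjusted p = 0.0219). TSM1, a methyltransferase of the tapetum, had 1012, 584 and 743 CPM in the transgenic libraries, against 1205, 1131 and 1150 CPM in the wild type (edgeR unadjusted p = 0.0249). Of 5 callose and tetrad genes tested, 4 were lower, and QRT3, a polygalacturonase of tetrad separation, had 128, 70.5 and 93.2 CPM in the transgenic libraries, against 160.5, 179.7 and 197 CPM in the wild type (edgeR unadjusted p = 0.00259). These lists are not separate from the tapetum markers below, since the partners include A9 and the callose and tetrad genes include A6.

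The marker genes of the tapetum, A9, ATA7, A6, ATA20 and ATA27, were 5 of 5 lower, and their summed level was 5725, 3268 and 4388 CPM in the transgenic libraries, against 6882, 7407 and 6038 CPM in the wild type. Of these sums, ATA20 alone made up 2872, 1664 and 2342 CPM in the transgenic libraries, against 3786, 4164 and 2606 CPM in the wild type. The groups overlapped for A9, ATA7, A6 and ATA20. ATA27 alone had all transgenic libraries below all wild type libraries (6.62% of all genes). It alone was lower at an unadjusted edgeR p under 0.05 (4.26% of all genes). Markers of meiocytes (2 of 6 tested, 1 lower) summed to 14.4 to 18.4 CPM in the transgenic and 15.4 to 19.3 CPM in the wild type libraries. Markers of late pollen (2 of 4 tested, 1 lower) summed to 0.881 to 4.29 CPM in the transgenic and 1.26 to 8.31 CPM in the wild type libraries, with PPME1 at 0 in 2 libraries of each genotype. The 6 carpel and ovule markers, 2 of them lower, summed to 97.1 to 123.1 CPM in the transgenic and 95.2 to 122.7 CPM in the wild type libraries. The 5 markers of green tissue, 1 of them lower, summed to 13910 to 26170 CPM in the transgenic and 16290 to 21120 CPM in the wild type libraries. Of 9 clock genes 7 were lower, none at an unadjusted p under 0.05. The part of these levels in the results for the sporopollenin genes was not tested. PP2AA3, a reference gene, had 41.7, 41.2 and 40.1 CPM in the transgenic libraries, against 47.3, 40.7 and 47.5 CPM in the wild type.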

How the data were processed

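RNA of 6 flower bud samples was sequenced, and the deposited values are counts per gene that the authors made with Hisat2 and featureCounts on the TAIR10 genome with the transgene sequence added. Versions, strand use and the treatment of multiply mapped reads were not given in the sources used here, and the deposited counts were used as they are. Of 27629 entries, 3873 had no count. Libraries were scaled by TMM, and the filter of edgeR at its defaults (minimum count 10, minimum total 15) left 18642 genes, which hold at least 99.86% of each library. Genotypes were compared with the quasi-likelihood test of edgeR 4.0.16, run in R 4.3.3, with p-values adjusted by Benjamini-Hochberg and genotype as the only term. Genes under an adjusted p of 0.05 were called. Log2 CPM used a prior count of 2. RPKM used the exon length of RefSeq TAIR10.1, which also gave names, positions and promoters. A floor of 3 counts per library covers counting error only.

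The 9 genes and the other 13 lists were chosen with earlier results of these data known. Named were all 9 genes, up to 4 genes of each list with the smallest p, all 8 regulators and the 10 genes most alike in Pearson correlation with the mean profile. Outside that rule, QRT1, the clock genes PRR5, TOC1, GI and LUX, all tapetum markers and all pollen coat genes were named as well. ELF4, PPME1, VGD1, the neighbours that overlap a member, and the ratio of CYP703A2 were singled out after their values were seen. The test was tried on simulated counts drawn independently for each gene, with no variation between libraries shared by genes. This trial therefore cannot show how the test behaves for genes that vary together, as these 9 did. Alternatives were RLE scaling, no filter, a minimum of 10 counts in every library, voom of limma 3.58.1, DESeq2 1.42.0, the replicate number as a block, each library left out, and, added after the data were seen, the older quasi-likelihood method. No pair of libraries of 1 genotype agreed within sampling noise, with a chi-square per degree of freedom of 15.4 to 56. Python 3.11.15 with matplotlib 3.10.9 drew the figures.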

Additional observations from a re-analysis of the deposited data

How the results depend on the processing

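None of the 9 genes was called at an adjusted p under 0.05 with any alternative (edgeR, DESeq2 or voom), and each kept a lower mean in transgenic buds in all 117 fits of single genes. The number lower at an unadjusted p under 0.05, 1 with edgeR, was 2 without a filter on low counts (3.9% of all genes in that fit) and 3 with DESeq2 (CYP704B1, PKSA and ABCG26; 4.1%). It was 0 to 8 when 1 library was left out: 0 without transgenic replicate 2 (2.43% of all genes) or wild type replicate 3 (5.07%), 8 without transgenic replicate 1 (3.32%), and 4 with wild type replicate 1 left out (2.44%). The number of genes whose libraries do not overlap, 0 in all libraries, was 0 to 7 when 1 library was left out (7 without transgenic replicate 1, beside 10.6% of all genes). It was 1 of 9 without wild type replicate 1 (9.39% of all genes) and 1 of 9 without wild type replicate 2 (14.2%), both near the share over all genes. The median log2 fold change of −0.72 ran from −1.19 to −0.26 with 1 library left out, and the difference between the genotypes in the log2 ratio of CYP704B1 to the other 8 genes, −0.66, from −1.0 to −0.46. The median correlation of 0.92 was 0.79 without the 2 farthest libraries. Across all genes, DESeq2 called 62, edgeR 3 and voom 0. The labels give both genotypes replicate numbers 1 to 3. Deviations from the group means of same-numbered libraries correlated at −0.076, −0.098 and −0.351. With 3 libraries per genotype, these values cannot tell whether same-numbered samples were handled together. With the replicate block the median log2 fold change was −0.74, 0 of the 9 genes and 0 of all genes were called, and 1 gene was lower at an unadjusted p under 0.05 (3.24% of all genes). The cause of these shifts was not tested.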

Other observations

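The 8 pollen coat genes, which code for oleosin-like proteins (GRP14 and GRP16 to GRP19) and extracellular lipases (EXL4 to EXL6) of the coat laid down by the tapetum at a later stage, had another order of the libraries than the sporopollenin genes. Their summed level was 2207, 2094 and 2141 CPM in transgenic replicates 1, 2 and 3, against 5580, 4224 and 1723 CPM in wild type replicates 1, 2 and 3. All 8 had lower means in transgenic buds, 0 were called and 5 had an unadjusted p under 0.05 with edgeR, beside the 4.26% of all genes that were lower at that p. EXL5 had 32.3, 23.3 and 27.0 CPM in the transgenic libraries, against 125.8, 69.3 and 31.3 CPM in the wild type. In wild type replicate 3, where each sporopollenin gene was at its highest among the wild type libraries, each of these 8 genes was at its lowest among the wild type libraries. Their correlation with the mean profile of the 9 sporopollenin genes lay between −0.67 and 0.17 over the 6 libraries.

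INO, a gene of the outer integument of the ovule, had the lowest such correlation among the genes of the lists examined, −0.947, with 3.77, 8.23 and 6.51 CPM in the transgenic libraries, against 5.93, 3.91 and 3.07 CPM in the wild type. The 7 clock genes with a mean of at least 5 CPM had correlations of both signs: 0.857 for PRR7, 0.435 for LHY, 0.004 for PRR5, −0.236 for GI, −0.525 for LUX, −0.529 for TOC1 and −0.762 for ELF4.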
